A study of Mus musculus with 24 samples.

Results

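AP-1 is a dimeric transcription factor built from Fos and Jun proteins, and 7 mouse genes of the family were followed here: Fos, Fosb, Fosl1 and Fosl2 on the Fos side, and Jun, Junb and Jund on the Jun side. Members are defined by gene symbol. Of the 7, 6 had a row among the 10721 genes of the deposited expression table, and all 6 were tested. Jun was not analysed here. RNA had been sequenced from cultured bone marrow cells of female mice aged 10 to 12 weeks, 3 wild-type mice (WT, numbered 480, 529 and 531) and 3 STING-deficient mice (KO, numbered 481, 528 and 532). STING is the adaptor protein between cytosolic DNA sensing and type I interferon, and the kind of allele carried by the KO mice is not given in the sources used here. Marrow of each mouse was first grown for 72 h in 40 ng/mL mCSF, the macrophage growth factor, and the day 0 libraries come from cells taken at that point. The rest of the cells were replated in 10 ng/mL RANKL, the cytokine that drives osteoclast formation, with 20 ng/mL mCSF, and were harvested on days 2, 3 and 4, with 3 wells pooled per mouse and day. This gave 24 libraries in 8 groups of 3. In every comparison of a later day with day 0, the effects of RANKL, the lower mCSF dose, replating and time in culture cannot be told apart.

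Fos and Jun proteins share a basic leucine zipper, a DNA-binding region next to a coil that holds the dimer together. Jun proteins pair with each other or with Fos proteins, while Fos proteins need a Jun partner to bind DNA, and the dimers recognise short TGACTCA-like motifs. Fos is indispensable for osteoclasts, since mice without it form macrophages but no osteoclasts and have dense bone. RANKL signals through its receptor RANK, TRAF6 and MAP kinases to Fos, which takes part in switching on Nfatc1, the central transcription factor of osteoclast formation. Several of these genes are also induced within minutes to hours by growth factors and stress in many cells, and these libraries sampled whole days.

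The promoters of Fos, Fosb and Fosl2 are printed because the make-up of the Fos side turned on these 3 genes. After day 0 Fosb fell and Fosl2 rose (r = -0.9942 over 24 libraries), and Fos fell late. This r follows the step from day 0 to later days, since Fosb was at most 0.184 FPKM after day 0. In all, 6 of the 7 members had an entry in the RefSeq promoter table (build GRCm38.p6; Fosl1 had none). Each window runs from 250 bases before the start site to 50 bases after it, 5' to 3' on the strand of the gene. Capitals mark the letters TGACG and TATAAA.
Fos, chr12:85473640-85473939, plus strand: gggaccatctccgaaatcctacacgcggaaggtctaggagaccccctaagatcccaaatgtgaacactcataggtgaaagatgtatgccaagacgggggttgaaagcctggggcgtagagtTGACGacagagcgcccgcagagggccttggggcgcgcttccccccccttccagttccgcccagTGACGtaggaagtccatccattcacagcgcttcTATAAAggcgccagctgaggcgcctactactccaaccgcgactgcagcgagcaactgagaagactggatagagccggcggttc
Fosb, chr7:19309996-19310295, minus strand: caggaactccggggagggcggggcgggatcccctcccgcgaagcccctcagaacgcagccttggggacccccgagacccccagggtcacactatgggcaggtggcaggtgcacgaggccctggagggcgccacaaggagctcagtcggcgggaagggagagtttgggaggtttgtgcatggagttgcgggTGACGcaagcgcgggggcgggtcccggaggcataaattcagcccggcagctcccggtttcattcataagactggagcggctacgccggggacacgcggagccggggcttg
Fosl2, chr5:32136222-32136521, plus strand: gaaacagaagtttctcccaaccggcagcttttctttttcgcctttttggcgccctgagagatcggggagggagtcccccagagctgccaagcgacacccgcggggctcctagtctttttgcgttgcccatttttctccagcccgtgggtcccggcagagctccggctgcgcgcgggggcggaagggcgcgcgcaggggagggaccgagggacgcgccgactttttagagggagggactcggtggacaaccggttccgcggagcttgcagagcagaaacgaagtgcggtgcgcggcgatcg
Both strands were searched for the AP-1 motif TGACTCA, the cyclic AMP response motif TGACGTCA, its first letters TGACG, the TATA letters TATAAA and the CArG box bound by serum response factor. Counting bases from the start site as 0, the Fos window held TGACG from -129 to -125 and from -66 to -62, and TATAAA from -33 to -28. The Fosb window held TGACG from -60 to -56. The Fosl2 window held none of the motifs searched. Among the Jun-side windows, that of Junb held TGACG from -106 to -102 and TATAAA from 0 to 5, and those of Jun and Jund held none. Of 32851 RefSeq promoter windows of this length, 20.8% held TGACG, 13.6% TATAAA, 5.2% TGACTCA, 1.79% TGACGTCA, which contains TGACG, and 1.63% a CArG box. These matches describe letters in a window and are no evidence of binding. On the same build the genes lie at chromosome 12, 85473890 to 85477274 (Fos), chromosome 7, 19302696 to 19310118 (Fosb), chromosome 19, 5447698 to 5455938 (Fosl1), chromosome 5, 32136472 to 32157840 (Fosl2), chromosome 8, 84976909 to 84978748 (Junb) and chromosome 8, 70697739 to 70700616 (Jund).

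The deposited values were FPKM, fragments scaled to transcript length and to the library's mapped fragments, so levels of different genes are per length and can be set side by side. Summed FPKM ran from 459180 to 734974 per library, and read depth is unknown, so no counting interval is given. STING's own transcript, listed as Tmem173, stood at 21.4 to 28.8 FPKM in WT day 0 libraries and 4.57 to 5.08 in KO ones. It was 5.28 to 7.35 in WT and 3.37 to 3.70 in KO libraries at day 2, 4.03 to 4.69 and 3.19 to 3.79 at day 3, and 3.38 to 5.01 and 2.65 to 2.86 at day 4, so the genotypes did not overlap at any day. Osteoclast markers (9 of 9 in the table) rose from a summed 67.8 to 175.3 FPKM at day 0 to 41250 to 49800 at day 4, and 6 of 8 monocyte and macrophage markers had a row. Of those 6, 4 fell from day 0 to day 2 in each genotype and 0 rose, with a median log2 change of -2.01 in WT. Cd14 went from 321.5 to 31.4 FPKM and Ly6c2 from 97.9 to 2.06 (WT means). From day 0 to day 4, 2 of the markers rose and 3 fell in WT, and 2 rose and 4 fell in KO. WT libraries read 249 to 564 FPKM of Csf1r at day 0 and 686.5 to 757 at day 4. Day 0 libraries also held neutrophil transcripts: 8 of 10 markers were in the table and summed to 5711 to 15560 FPKM at day 0 against 71.1 to 212.1 at later days. B cell markers (5 of 6) summed to 22.3 to 102.3 FPKM at day 0 and to at most 0.595 later, and mast cell and basophil markers (3 of 4) to 5.02 to 20.7 at day 0 and at most 0.231 later. Every comparison with day 0 below therefore moves together with lower neutrophil and B cell transcripts. Monocyte and macrophage markers mostly fell at day 2 and went both ways at day 4. The part of all these transcripts in the results was not tested. In bulk RNA, fewer cells of a type and less RNA per cell cannot be told apart.

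Libraries of mice 480 (WT) and 481 (KO) stood apart from the other 4 libraries at day 3 in Fos and in several other immediate early transcripts, those induced without new protein synthesis. Fos was 243 FPKM in mouse 480 and 232 in mouse 481, against 122 to 133 in the other 4 mice. Egr1, a zinc finger transcription factor of the same response, was 21.7 and 18.0 FPKM in those mice against 0.629 to 2.07 in the others. Ranked over 10081 tested genes by how far both libraries lay above the others, Egr1 was rank 1 and Fos rank 2 at day 3. The high place of Fos was built in, since the mice were singled out for their high Fos at day 3. The 2 mice differ in genotype and have neighbouring numbers, and the labels do not say what neighbouring numbers share. The changes of Fos between days and its genotype differences are given with and without these mice, a choice made after seeing the values.

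**Figure D1:**
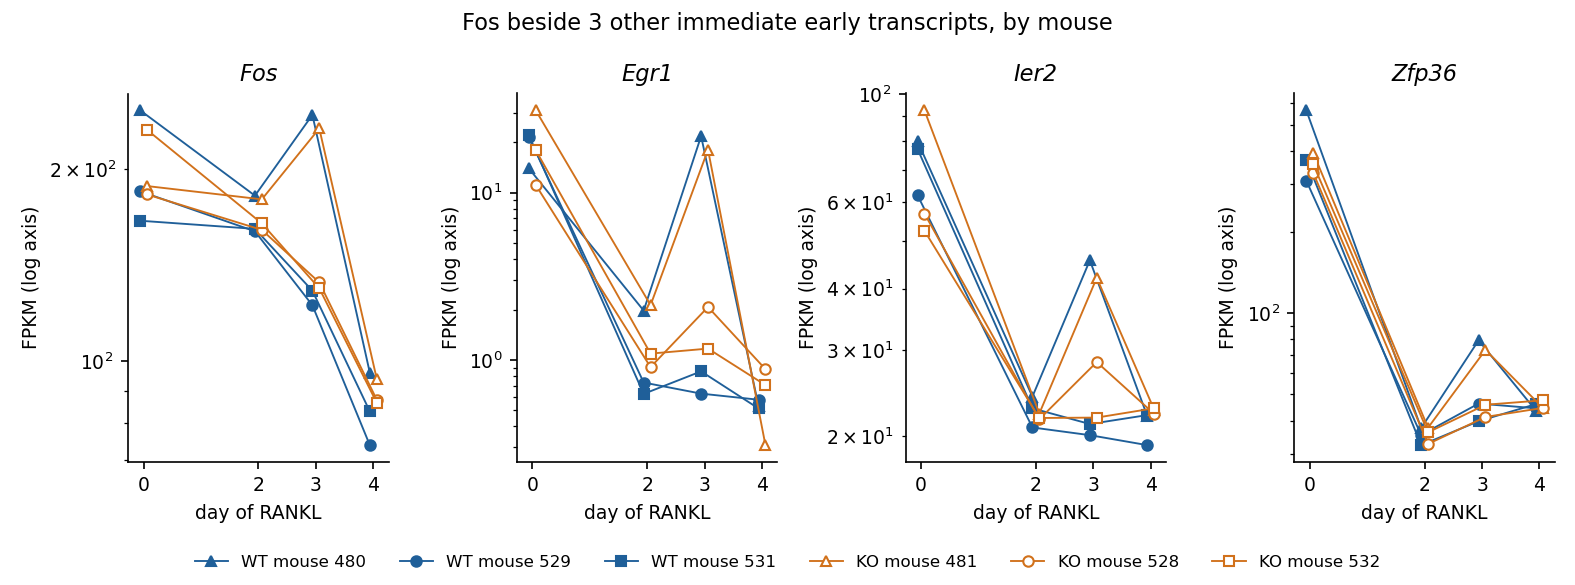
FPKM of Fos, Egr1, Ier2 and Zfp36 on a log axis (y) against the day of RANKL (x), 1 line per mouse, WT filled and KO open. At day 3 the lines of mice 480 and 481 lie above the other 4 in each panel. For Egr1 they are at 21.7 and 18.0 FPKM against at most 2.07.

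At day 3 both libraries lay above the other 4 for 3 of 6 AP-1 genes, beside 8.89% of all tested genes. The 3 were Fosl1, Junb and Fos, which the choice of the mice had fixed. Of 12 tested immediate early genes outside AP-1, 4 lay above at day 3 (Egr1, Ier2, Myc and Btg2), and 5, 1 and 0 on days 0, 2 and 4. The day 3 gap was narrow for Myc (53.0 and 53.1 FPKM against at most 52.1) and Btg2 (0.894 and 1.11 against at most 0.830). At day 3, a gap of at least 1.5-fold, measured on FPKM + 1, was found for 0.0694% of all genes (7 genes). Among them were Fos, Egr1, Il10, an anti-inflammatory cytokine, and Zfp36, which promotes decay of AU-rich mRNAs. Zfp36 was 73.1 to 79.3 FPKM in mice 480 and 481 and 39.8 to 46.3 in the others, and Ier2 was 42.1 to 45.7 against 20.1 to 28.3. The neutrophil transcript S100a9 was also higher in them at day 3, at 70.8 to 76.5 FPKM against 27.1 to 42.1; its part in the Fos difference was not tested. Fos was highest in these 2 mice on day 2 (182 and 179 FPKM against 159.8 to 164) and on day 4 (96.0 and 94.0 against 73.9 to 87.1), but not on day 0, when mouse 481 was at 188 FPKM within the others' range of 166 to 230.4. The 2 mice stood above the others in many genes on each day. Of 10081 tested genes this held for 1879 at day 0, 1090 at day 2, 896 at day 3 and 1298 at day 4. A gap of at least 1.5-fold held for 93, 4, 7 and 4 genes on those days.

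Fos itself was abundant before RANKL and was lowest at day 4 in both genotypes. At day 0 the WT libraries read 247, 185 and 166 FPKM and the KO libraries 188, 183 and 230.4 (mice in the order given above). At day 2 they read 182, 159.8 and 161 in WT and 179, 161 and 164 in KO. At day 3 they read 243, 122 and 129 in WT and 232, 133 and 130.1 in KO, and at day 4 96.0, 73.9 and 83.5 in WT and 94.0, 87.1 and 86.2 in KO. Every day 4 library lay below every library of the other days. Group means were 199 ± 42.6 (SD, n = 3), 168 ± 12.3, 165 ± 67.8 and 84.5 ± 11.1 in WT for days 0, 2, 3 and 4, and 200.3 ± 26.2, 168 ± 9.89, 165 ± 57.7 and 89.1 ± 4.25 in KO.

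Changes were tested with limma on log2(FPKM + 1), with Benjamini-Hochberg adjustment over all 10081 tested genes and a threshold of 0.05; a fold on this scale understates changes of genes near 1 FPKM. Fos was lower at day 4 than at day 0 by 1.22 in WT (log2 change -1.22, SE 0.34, adjusted p = 0.00303) and in KO (-1.15, adjusted p = 0.00467). The step from day 3 to day 4 was -0.89 in WT (adjusted p = 0.00223) and -0.83 in KO (adjusted p = 0.00448); without mice 480 and 481 it was -0.671 and -0.596. Without mouse 532 the KO change from day 0 to day 4 missed the threshold (-1.03, adjusted p = 0.0577; 8.35e-07 to 0.0577 over 13 alternatives), and without mouse 481 so did the KO step from day 3 to day 4 (-0.60, adjusted p = 0.0681; 0.000178 to 0.0681). Day 2 and day 3 did not differ detectably from day 0 when all mice were used (WT -0.23 and -0.32, KO -0.25 and -0.33, adjusted p from 0.375 to 0.553).

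With mice 480 and 481 both left out, which leaves 2 mice per genotype, some Fos comparisons before day 4 passed the threshold. These 2 mice were singled out for their high Fos at day 3. Lower day 3 values were therefore built in. The fit shares the spread of a gene over all groups, so a smaller spread of Fos was built into its other comparisons too. The day 2 and day 3 results below give no support for an earlier fall. Fos was lower at day 3 than at day 0 by 0.47 in WT (log2 change -0.475, adjusted p = 0.0017; 0.0017 to 0.677 over the alternatives) and by 0.64 in KO (-0.637, adjusted p = 0.000214; 0.000214 to 0.882). It was also lower at day 3 than at day 2 (WT -0.351, adjusted p = 0.00704, range 0.00704 to 0.97; KO -0.303, adjusted p = 0.0165, range 0.0165 to 0.98). In KO, day 2 was lower than day 0 as well (-0.334, adjusted p = 0.0233, range 0.0233 to 0.824), while in WT that difference was -0.124 (adjusted p = 0.351, range 0.233 to 0.715). The day 4 falls held without the 2 mice, at -1.15 in WT and -1.23 in KO from day 0.

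**Figure D2:**
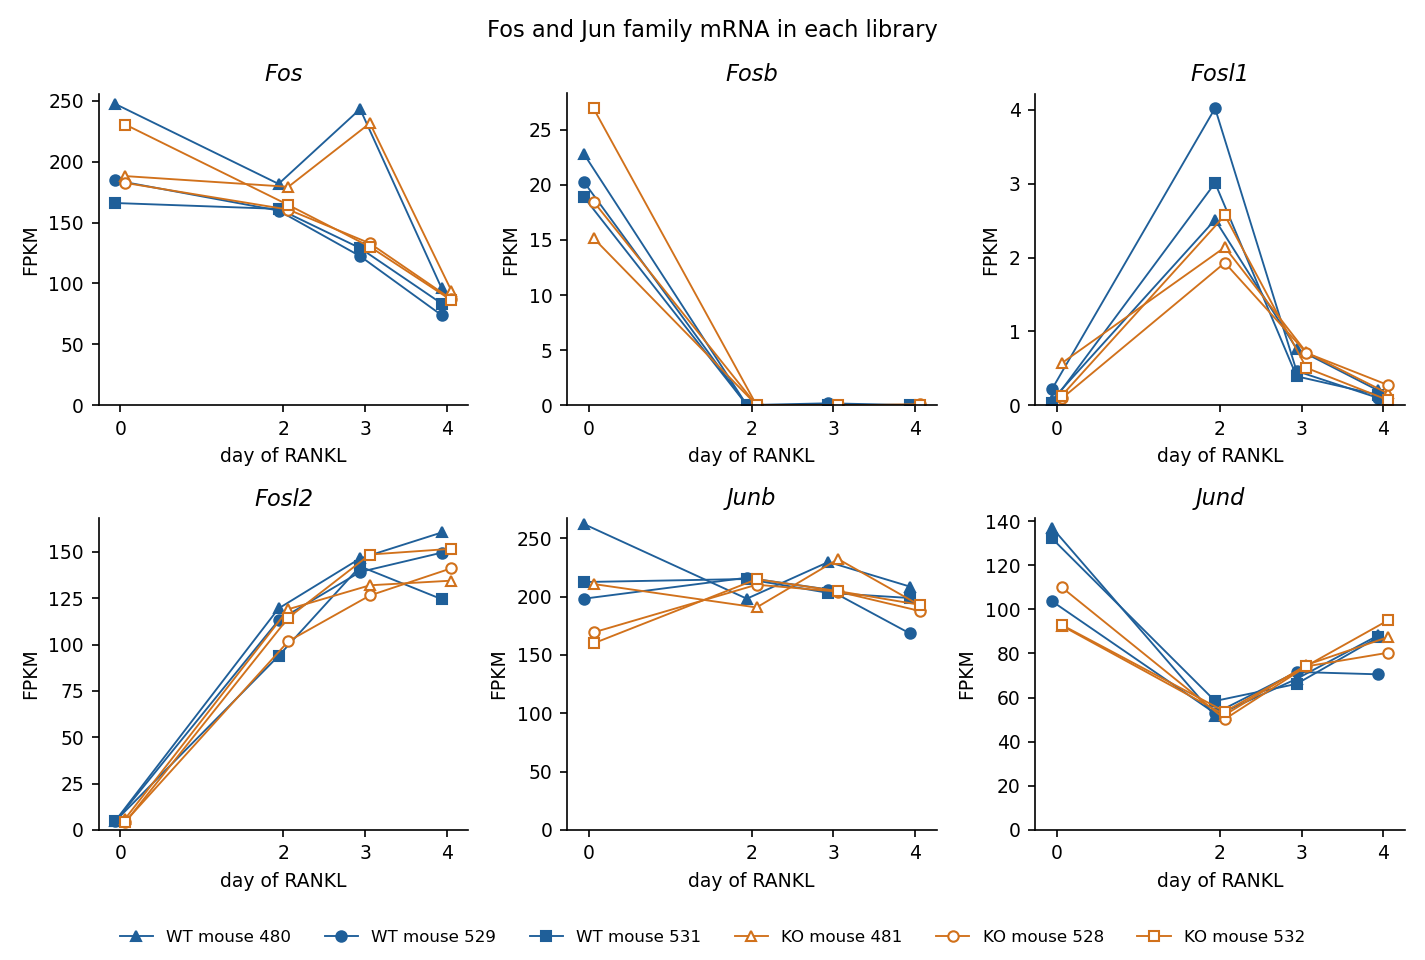
FPKM (y, linear, a scale per gene) of the 6 measured members against the day of RANKL (x), 1 line per mouse, WT filled and KO open. Fosb falls to near 0 after day 0, Fosl1 peaks at day 2, Fosl2 climbs from at most 6.06 FPKM at day 0 to at least 93.9 afterwards, and Junb stays between 159.9 and 262 FPKM.

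Fosb, a Fos-side protein known from the immediate early response and from bone-forming cells, was high at day 0 and nearly absent from these libraries later. It read 22.8, 20.3 and 18.9 FPKM in WT and 15.2, 18.5 and 26.9 in KO at day 0. In the 18 later libraries it was at most 0.184 FPKM, and it was listed at 0 in 4 of them. The day 0 and later values did not overlap. The log2 change from day 0 was -4.40, -4.35 and -4.39 at days 2, 3 and 4 in WT (adjusted p = 2.145e-16, 6.664e-17 and 6.193e-17) and -4.35, -4.36 and -4.29 in KO. Fosb passed the filter on low values through its day 0 groups alone, so it had to differ from day 0 in such a comparison.

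Fosl1, which encodes Fra-1, a Fos-side protein without the long activation domain of Fos, showed a brief peak at day 2. It read 0.0698, 0.219 and 0.0327 FPKM in WT and 0.571, 0.0927 and 0.131 in KO at day 0. At day 2 the values were 2.51, 4.02 and 3.01 in WT and 2.14, 1.93 and 2.57 in KO. The 6 libraries at day 3 spanned 0.393 to 0.766 FPKM and those at day 4 0.0716 to 0.275. All day 2 libraries were above all others, yet at most 4.02 FPKM, which is low beside Fos, Fosl2 and the Jun side. The log2 rise from day 0 to day 2 was 1.90 in WT (adjusted p = 1.228e-08) and 1.36 in KO (adjusted p = 1.502e-06), and the fall from day 2 to day 3 was 1.43 in WT (log2 change -1.43, adjusted p = 7.54e-09) and 0.96 in KO (-0.96, adjusted p = 1.54e-06). It fell again from day 3 to day 4, by 0.42 in WT and 0.49 in KO. Fosl1 passed the low-value filter through its day 2 groups alone, so a difference between day 2 and the other days was built in.

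At day 3 Fosl1 was still above day 0 by 0.47 in WT (adjusted p = 0.0195) and 0.40 in KO (adjusted p = 0.0485), but neither call was stable. In WT the adjusted p was 0.0828 without mouse 480, 0.0859 without mouse 531 and 0.062 without mice 480 and 481 (0.00212 to 0.0859 over 12 alternatives). In KO it was 0.28 without mouse 528, 0.109 without mouse 532, 0.0586 after median scaling and 0.0519 with a term for the mouse (0.00994 to 0.28 over 12 alternatives).

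Fosl2, which encodes Fra-2, rose the most of the family on the log2(FPKM + 1) scale. As a ratio of mean FPKM, the rise from day 0 to day 2 was 22.6 for Fosl2 and 29.7 for Fosl1 in WT. In KO it was 23.1 and 8.36. At day 0 Fosl2 read 4.98, 4.66 and 4.79 FPKM in WT and 6.06, 4.40 and 4.08 in KO. At day 2 it read 119.5, 113 and 93.9 in WT and 119.1, 102 and 114.5 in KO, at day 3 146.5, 139 and 142 in WT and 132, 126.5 and 149 in KO, and at day 4 160.5, 149.6 and 124.5 in WT and 134.5, 141 and 152 in KO. Every later library lay above every day 0 library. The log2 change from day 0 was 4.23, 4.63 and 4.64 at days 2, 3 and 4 in WT (adjusted p = 4.339e-15, 2.477e-16 and 3.309e-16) and 4.28, 4.56 and 4.63 in KO. Most of the rise was complete by day 2. The step from day 2 to day 3 added 0.39 in WT (adjusted p = 0.00173) and 0.28 in KO (adjusted p = 0.0221), the latter lost with equal sample weights (adjusted p = 0.0773), without mouse 528 (0.102) and without mouse 532 (0.146; 0.00225 to 0.146 over 13 alternatives). Day 4 and day 3 were not told apart (0.01 in WT, 0.07 in KO, adjusted p = 0.92 and 0.571).

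The make-up of the Fos side shifted from Fos toward Fosl2 between day 0 and day 4 in all 6 mice, but not at each step. Summed FPKM of the 4 Fos-side genes was 225 ± 34.5 (SD, n = 6 mice of both genotypes) at day 0, 281 ± 18.6 at day 2, 305 ± 57.3 at day 3 and 231 ± 16.1 at day 4. Fos made up 87.5% to 89.9% of that sum at day 0, 57.7% to 62.5% at day 2, 46.6% to 63.6% at day 3 and 33.1% to 41.1% at day 4. Fosl2 made up 1.56% to 2.89%, 36.4% to 40.8%, 36.2% to 53.2% and 58.8% to 66.9% on the same days. Fosb held 7.23% to 10.3% at day 0. The ratio of Fosl2 to Fos was 0.0177 to 0.0322 at day 0 and 1.43 to 2.02 at day 4, so all 6 mice passed from more Fos to more Fosl2 mRNA. At day 3 the ratio ran from 0.570 to 1.14. From day 2 to day 3 it rose in 4 mice and fell in the other two, from 0.658 to 0.603 in mouse 480 and from 0.664 to 0.570 in mouse 481. A share of mRNA is not a share of protein or of DNA-bound dimer.

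**Figure D3:**
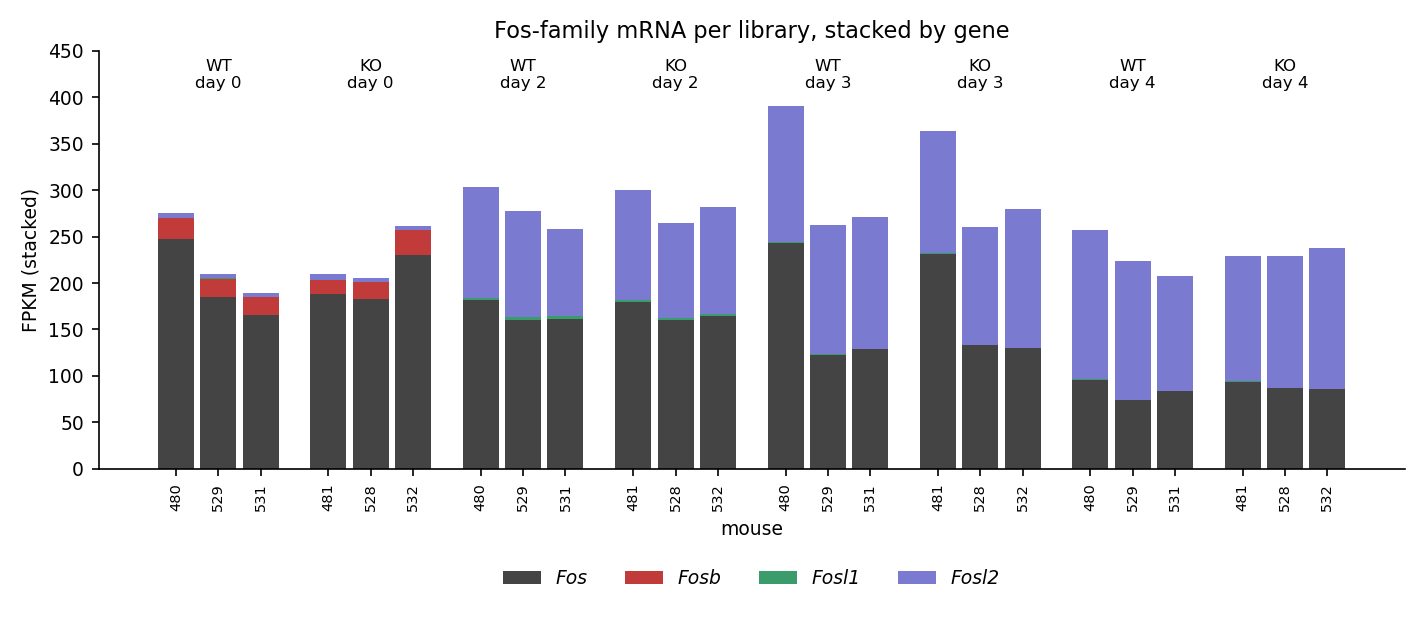
Stacked FPKM of Fos, Fosb, Fosl1 and Fosl2 (y) in each of the 24 libraries, grouped by day and genotype (x, mouse number). Fos fills 87.5% to 89.9% of each bar at day 0 and 33.1% to 41.1% at day 4, where Fosl2 is the larger part.

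On the Jun side, Junb was the steadiest member. Junb is a partner for Fos proteins with weaker activation than Jun on many promoters. It read 262, 198 and 213 FPKM in WT and 211, 169 and 159.9 in KO at day 0, 198 to 216 in WT and 191 to 215 in KO at day 2, 203 to 229.7 and 204 to 232 at day 3, and 168 to 209 and 188 to 193 at day 4. Ranges of the days overlapped in WT, while in KO the day 4 values (188 to 193) lay below those of day 3 (204 to 232). No Junb comparison between days passed the threshold. The changes from day 0 were -0.09, -0.07 and -0.22 in WT and 0.20, 0.25 and 0.10 in KO. The KO rise at day 3 (adjusted p = 0.0778) passed with equal sample weights (adjusted p = 0.0399) and without mice 480 and 481 (0.312, adjusted p = 0.0165; 0.0165 to 0.272 over 13 alternatives). The KO rise at day 2 passed without mouse 481 (0.367, adjusted p = 0.0494) and without both mice (0.367, adjusted p = 0.0111; 0.0111 to 0.685).

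Jund, the Jun-side gene known for steady expression in resting cells, dipped at day 2 and then climbed. It read 137, 104 and 132 FPKM in WT and 92.6, 110.0 and 93.0 in KO at day 0, and 51.7, 52.9 and 58.5 in WT and 52.1, 50.2 and 53.7 in KO at day 2. At day 3 it read 68.5, 71.6 and 66.2 in WT and 74.8, 74.1 and 74.3 in KO, and at day 4 88.2, 70.5 and 87.4 in WT and 87.4, 80.3 and 95 in KO. The values at days 0, 2 and 3 did not overlap in either genotype, while KO values at day 4 overlapped those at day 0. Relative to day 0, Jund was lower by 1.17 at day 2 in WT (log2 change -1.17, adjusted p = 6.349e-08) and by 0.90 in KO (-0.90, adjusted p = 2.356e-06). At day 4 the WT difference was -0.59 (adjusted p = 0.000229) and the KO difference -0.17 (adjusted p = 0.223).

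Jund recovered in steps of unequal firmness. From day 2 to day 3 it rose by 0.34 in WT (adjusted p = 0.0015) and 0.51 in KO (adjusted p = 2.912e-05); the WT call was lost without mice 480 and 481 (0.304, adjusted p = 0.067; 0.000543 to 0.067 over 13 alternatives). From day 3 to day 4 it rose by 0.24 in WT (adjusted p = 0.0151) and 0.23 in KO (adjusted p = 0.024). The WT call of this step was lost with equal weights (0.0968), with only the 2 groups compared (0.08), with a term for the mouse (0.0538), without mouse 480 (0.155), without mouse 531 (0.181) and without mice 480 and 481 (0.242), in a range of 0.00206 to 0.242. The KO call was lost with equal weights (0.132), without mouse 481 (0.12), without mouse 532 (0.2) and without mice 480 and 481 (0.151), in a range of 0.00361 to 0.2. The KO difference of day 3 from day 0 (-0.40, adjusted p = 0.0063) was lost without mouse 528 (adjusted p = 0.0698; 0.00158 to 0.0698). The ratio of Junb to Jund averaged 1.83 at day 0, 3.91 at day 2, 2.99 at day 3 and 2.27 at day 4 over 6 mice.

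Against the whole table, day comparisons changed most genes, and the members' calls have to be read beside that. In WT, 2 members rose and 2 fell at day 2 against day 0, where 38.5% of all tested genes rose and 37.5% fell. At day 3 the members again gave 2 rises and 2 falls (all genes 40.4% and 41.6%), and at day 4 1 rise and 3 falls (39.2% and 42.7%). In KO the members gave 2 rises and 2 falls at day 2 (37.1% and 36.5%), 2 and 2 at day 3 (38.9% and 39.5%), and 1 and 2 at day 4 (38.6% and 40.8%). From day 2 to day 3, Fosl2 and Jund rose and Fosl1 fell in both genotypes, beside 24.9% and 24.2% of all genes in WT and 23.6% and 20.3% in KO. From day 3 to day 4, Jund rose and Fos and Fosl1 fell in both genotypes, beside 19% and 19.8% in WT and 18.2% and 17.6% in KO. With 6 members, 4 of 6 or 3 of 6 called is no more than the share of all genes called in any comparison with day 0. WT comparisons share the WT day 0 libraries, and KO comparisons the KO ones.

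The order of levels within the family differed between day 0, days 2 and 3, and day 4. At day 0 Junb and Fos led with overlapping ranges, followed by Jund, Fosb, Fosl2 and Fosl1. At day 2 the order was Junb, Fos, Fosl2, Jund, Fosl1 and Fosb in both genotypes. At day 3 the order of the means was the same, but the ranges of Fos overlapped those of Junb and Fosl2. At day 4 Junb led, Fosl2 came second, and Fos and Jund followed with overlapping ranges, ahead of Fosl1 and Fosb.

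The KO and WT libraries were compared at each day to ask whether loss of STING altered the family. No member passed the threshold at any day. Calls over all genes were also few: 0.0992% of tested genes at day 0, 0.0298% at day 2, 0.0198% at day 3 and 0.0298% at day 4. Equal sample weights in limma also gave 0 members at each day. At an unadjusted p under 0.05, 1 member differed at day 2, beside 1.01% of all genes, and 0 at days 0, 3 and 4, beside 1.96%, 3.55% and 1.7%. That member was Fosl1, with means of 2.21 ± 0.327 FPKM in KO and 3.18 ± 0.769 in WT (log2 difference -0.37, SE 0.12, 95% interval -0.63 to -0.11, adjusted p = 1); the genotypes overlapped. For Fos the 95% interval of the KO minus WT difference was -0.88 to 0.92 at day 0 and -0.49 to 0.50 at day 2. It was -0.39 to 0.43 at day 3 and -0.38 to 0.54 at day 4. Differences within these unadjusted intervals are not excluded. Without mice 480 and 481 the difference was 0.227, 0.0175, 0.0649 and 0.139 on those days (adjusted p = 0.983, 1, 0.873 and 0.83). For Fosl2 it was -0.25 to 0.10 at day 3 and -0.22 to 0.18 at day 4.

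**Figure D4:**
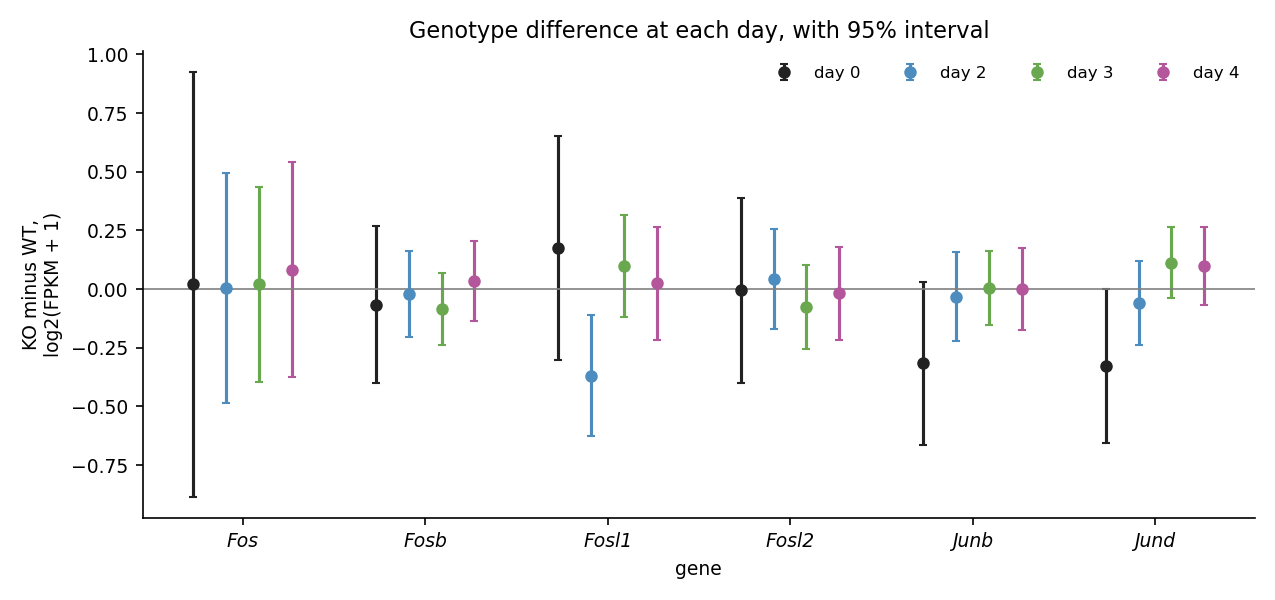
KO minus WT difference of the 6 members in log2(FPKM + 1) (y) for each gene (x) and day (colour); points are fitted differences, bars 95% intervals, 3 mice per genotype. The interval of Fosl1 at day 2 (-0.63 to -0.11) lies below 0 before adjustment, and the widest, of Fos at day 0, runs from -0.88 to 0.92.

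Junb and Jund had their lowest KO values relative to WT at day 0, with differences of -0.32 (95% interval -0.66 to 0.03) and -0.33 (-0.66 to 0.0021), adjusted p = 1 for both. For Junb at day 4 the interval was -0.18 to 0.18. At day 3 Jund read 74.1 to 74.8 FPKM in KO and 66.2 to 71.6 in WT, a log2 difference of 0.11 with an adjusted limma p of 0.934. The genotype difference in the change from day 0 was then tested as an interaction. It passed for none of the 6 members, beside 0.0397% of all genes for day 2, 0.0694% for day 3 and 0.0496% for day 4. At an unadjusted p under 0.05, beside 1.55%, 3.52% and 1.44% of all genes for days 2, 3 and 4, there was 1 member each: Fosl1 for day 2 (-0.54, 95% interval -1.09 to -0.0014), Jund for day 3 (0.44, 0.08 to 0.80) and Jund for day 4 (0.42, 0.06 to 0.79). The Jund fall that passed at day 4 in WT and not in KO is therefore not shown to differ between the genotypes (adjusted p = 0.9991 for that interaction). The Fos interactions were -0.02, -0.00052 and 0.06 with all mice and -0.209, -0.162 and -0.0876 without mice 480 and 481 (adjusted p at least 0.791). The ratio of Fosl2 to Fos did not separate the genotypes at any day by a two-sided exact permutation test of its logarithm (p = 0.9, 0.8, 0.7 and 0.6 for days 0, 2, 3 and 4), nor did that of Junb to Jund (exact p = 1, 0.8, 0.3 and 0.2); adjusted over these 8 tests every p was 1. With 3 mice against 3 the smallest p this test allows is 0.1. It could therefore not pass 0.05, and does not show that the ratios are alike.

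For the lists below, 39.2% of all tested genes rose and 42.7% fell at day 4 against day 0 in WT, and 38.6% and 40.8% in KO. Upstream of AP-1, 25 of 29 listed receptors and kinases were tested, and 13 rose and 8 fell at day 4 in WT (11 and 7 in KO), with a median log2 change of 0.29 beside -0.07 over all tested genes. Tnfrsf11a, the RANKL receptor RANK, went from 10.47 ± 0.884 FPKM (SD, n = 3) to 43.8 ± 4.35 in WT (log2 change 1.96, adjusted p = 1.28e-11). Fcer1g, an ITAM adaptor that costimulates osteoclast formation, fell by 1.98, and the ERK-activated kinase Rps6ka1 fell by 1.42. Of 17 listed genes that restrain MAP kinases or AP-1 or speed its decay, 13 were tested, and 3 rose and 7 fell in WT (3 and 6 in KO), with a median of -0.42. Dusp1, a phosphatase that switches off p38 and JNK, went from 197 ± 21.1 to 7.45 ± 0.667 FPKM in WT (-4.55, adjusted p = 9.423e-13). Trib1 fell by 1.83 and the ERK phosphatase Dusp6 by 1.58.

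Other basic leucine zipper factors that can pair with Jun or Fos proteins are described next, beside the same shares of all genes. Of 24 listed, 20 were tested; in WT at day 4, 6 rose and 13 fell (6 and 12 in KO), and the median was -0.74. Of the 20, 2 (Batf3 and Nfe2) passed the low-value filter through day 0 alone and had to fall, and 1 (Atf7) through later days alone. Jdp2, a Jun-dimerising protein that mice need for normal osteoclast formation, read 7.38, 17.5 and 14.8 FPKM in WT at day 0 and 608, 575 and 570.1 at day 2. It then stayed between 511 and 627.5 FPKM in WT and between 579 and 616 in KO at days 3 and 4. Its log2 change at day 4 was 5.37 in WT (adjusted p = 8.206e-17) and 5.16 in KO, and per length its mRNA was above that of each AP-1 member measured from day 2 onward. Nfe2 fell by 3.52 and Atf5 by 2.97 in WT. Atf3, a stress-induced partner named here after its values were seen, was 211.5 ± 30.2 FPKM at day 0 in WT, 5.56 ± 0.778 at day 2 and 16.7 ± 4.52 at day 4.

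Genes reported elsewhere as targets split by kind. All 10 listed osteoclast genes under Fos and Nfatc1 rose at day 4 in both genotypes, with a median log2 change of 6.99 in WT; most of them also stood in the osteoclast marker list, and 3 (Calcr, Oscar and Ocstamp) passed the filter through later days alone, so they had to rise. Oscar, an ITAM-coupled receptor, rose by 8.38, Dcstamp, a fusion protein, by 7.17, and Acp5, tartrate-resistant acid phosphatase, by 9.69 (WT). Nfatc1 itself, named after its values were seen, was 13.1 ± 1.55 FPKM at day 0, 157 ± 27.2 at day 2, 158 ± 9.52 at day 3 and 107 ± 16.5 at day 4 in WT. Of 9 tested AP-1 targets known from other cells (10 listed), 2 rose and 6 fell in both genotypes, with a median of -1.62 in WT. The urokinase gene Plau fell by 3.53, the collagenase gene Mmp13 by 2.68 and the cytokine gene Il1b by 2.42; Mmp13 and Il1b passed the filter through day 0 alone and had to fall, and Hbegf through later days alone.

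Immediate early genes outside AP-1 are set here beside Fosb, which belongs to the same early response. Of 14 listed, 12 were tested, and at day 4 1 rose and 10 fell in both genotypes, with a median of -1.74 in WT and -1.497 in KO, and 1 of the 12 (Nr4a2) passed the filter through later days alone. Ier3 read 100.5, 60.2 and 76.6 FPKM in WT at day 0 and 2.23, 2.95 and 3.27 at day 4 (log2 change -4.37, adjusted p = 5.677e-13). Klf2 fell by 3.97 and the antiproliferative gene Btg2 by 2.61. No gene of these 6 lists passed in a KO against WT comparison or in an interaction.

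Genes whose profile was most like each member were read from Pearson's r of log2(FPKM + 1) over the 24 libraries, as a description; libraries share mice and days, and most of the likeness follows the day. For Fosl2 they were Src (r = 0.9991), the kinase needed for bone resorption, Sema7a (0.9982) and Fam102a (0.9981). For Fosb they were Scd1 (0.9989), Rhoh (0.997) and BC064078 (0.9967). For Fosl1 they were Nop56 (0.9727), Nop14 (0.9628) and Ddx27 (0.9605). Nop56 and Nop14 act in ribosome assembly. For Jund they were Hsbp1 (0.9768), Neu1 (0.9703) and Tmem179b (0.9675), and for Fos Slc27a1 (0.9113), Capn2 (0.9053) and Il10 (0.8972). Junb had no close match, with Prdx2 (0.6782), Cd37 (0.6665) and Zfp296 (0.6442) nearest. Between members, Fosb and Fosl2 were the most opposed (r = -0.9942).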

How the data were processed

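RNA was sequenced from bone marrow cultures of 3 WT and 3 KO mice at days 0, 2, 3 and 4. The submitters' processing notes name HISAT2 2.0.5, Cuffdiff and Cufflinks 2.2.1, and mm10 as the genome build. The authors deposited FPKM for each library in 1 table, whose rule for including genes is not given in the sources used here. Strandedness, annotation, multi-mapping rules and depth are not given either, and 0 value columns were left unused. Each library's group was taken from the labels.

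Tests used limma 3.58.1 (R 4.3.3) on the log2 of FPKM plus a pseudocount of 1, with 1 mean per group of genotype and day, a mean-variance trend, sample weights by day (0.355, 1.2, 1.7 and 1.38 for days 0, 2, 3 and 4) and 16 residual degrees of freedom. A gene was kept if any of the 8 group means reached 1 FPKM (10081 kept). Two-sided p-values of each of the 17 comparisons were adjusted by the Benjamini-Hochberg method, with a threshold of 0.05. All libraries enter the fit, which has no term for the mouse. The members, the lists and the weights were chosen with earlier results of these data known. Named genes were the 7 members, the 3 genes most like each, and the 3 tested genes of each list with the smallest adjusted p at day 4 against day 0 in WT; genes named outside this rule are said to be, or stand in a count they belong to.

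Mouse numbers pair libraries of the same animal across days. Same-mouse libraries deviated together: the median correlation of their deviations was 0.136 among WT mice, where 10 of 18 pairs exceeded 0.1, and 0.261 among KO mice, where 17 of 18 did. On data simulated for KO against WT over 10081 genes with 200 changed, 137, 182, 188 and 187 were recovered at days 0, 2, 3 and 4, with 4, 8, 11 and 9 false calls; of 50 changes of 0.5 on the log2 scale, 10, 36, 40 and 39 were recovered. With equal weights 420 false calls arose at day 0. The simulated spread differed by day as in these data, so this was built in and gives no support for the weights. Libraries of the same mouse were simulated as independent, unlike the real ones.

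Alternatives were equal weights, a pseudocount of 0.1, a filter at 5 FPKM or none, median scaling, only the groups compared, mouse blocks, and each mouse left out; leaving out mice 480 and 481 and a term for neighbouring numbers were chosen after seeing the data. Promoter windows and positions are from RefSeq, GRCm38.p6.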

Additional observations from a re-analysis of the deposited data

How the results depend on the processing

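Of 35 changes of members between days that passed the threshold, 26 kept their direction and stayed past it under every alternative that tested them. The filter at 5 FPKM tested 27 of the 35, as it left out Fosl1. Of the 26, 12 are of Fosb and Fosl1, which passed the low-value filter through 1 day alone, so their stability adds no support, and 14 are of Fos, Fosl2 and Jund. The others are given with their values in the report. Of 56 member comparisons that never passed, 34 changed sign in at least 1 alternative, the largest having a log2 difference of 0.176. No member passed in KO against WT or in an interaction under any alternative run. Members of the KO changes called numbered 2 to 4 for day 3 against day 0 and 1 to 3 for day 4 against day 3 when each mouse was left out in turn; without mice 480 and 481 they numbered 6 at day 2 and 6 at day 3 against day 0, and 4 for day 3 against day 2. The change of Fos from day 2 to day 3 ran from -0.351 to 0.0489 in WT and from -0.303 to 0.0477 in KO over the same alternatives, with each mouse left out or both. With the mouse as a random replicate block no member call changed; with it as a fixed replicate block 2 were lost, Fosl1 in KO at day 3 against day 0 (adjusted p = 0.0519) and Jund in WT at day 4 against day 3 (adjusted p = 0.0538).

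Counts over all genes moved more. KO against WT gave 10, 3, 2 and 3 genes at days 0, 2, 3 and 4, and the interactions 4, 7 and 5 for days 2, 3 and 4. Equal weights gave 38, 1, 1 and 1 genes, 7 for the day 2 interaction, 2195 in place of 3913 for WT day 4 against day 3 and 1809 in place of 3609 for KO. A pseudocount of 0.1 gave 2 at day 0 and 1, 1 and 0 for the interactions, and a filter at 5 FPKM gave 6 at day 0 and 3 and 1 for the day 3 and day 4 interactions. Median scaling gave 5 at day 2. With only the groups compared, KO against WT gave 3, 1 and 1 at days 0, 2 and 4, and the day 3 and day 4 interactions 4 and 1. Without mice 480 and 481, day 4 gave 6 genes, and with a term for neighbouring numbers the day 3 and day 4 interactions gave 4 and 3. Leaving out each mouse gave 4 to 11 genes at day 0, 1 to 4 at day 2 and 1 to 45 at day 4 (45 without mouse 480), 1 to 4, 2 to 5 and 0 to 2 for the interactions, 2843 to 3661 in place of 4422 for KO day 3 against day 2, and 2069 to 2536 for KO day 4 against day 3. The cause of these shifts was not tested. Depth is unknown, so what it limits could not be stated.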
